A study of Mus musculus with 12 samples.

Results

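The cadherin and protocadherin genes are the rows of the count tables whose symbol is Cdh followed by a number, begins with Pcdh, or is *Celsr1* to *Celsr3*, *Fat1* to *Fat4* or *Dchs1*, with the endothelial gene *Cdh5* left out. They were 100 of the 35976 gene symbols in each of the 12 tables. By family they were 5 type I cadherins, 12 type II cadherins, 5 other cadherins, 14 alpha, 22 beta and 22 gamma protocadherins of the clustered locus, 12 other protocadherins and 8 genes of the Celsr, Fat and Dchs families. The rule used symbols and no measured value.

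Testes were taken at E15.5 from embryos of outbred Swiss (RjOrl) mice. F1 embryos came from pregnant females gavaged from E6.5 to E15.5 with thiacloprid (*thia*), a neonicotinoid insecticide, at 6 mg/kg/day in olive oil, and F1 control embryos came from females given 0 mg/kg/day, the oil alone. F3 embryos descended from such F1 males through the male line, each male being crossed with unexposed and unrelated females. Every group had 3 libraries, and each library held RNA from the pooled testes of 3 embryos.

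Cadherins are cell surface proteins that bind like molecules on neighbouring cells in the presence of calcium. The classical cadherins of type I and type II hold adherens junctions through catenins and sort cells during organ formation. The clustered protocadherins give neurons their surface identity, and each alpha, beta and gamma variable exon has its own promoter. In the fetal testis, N-cadherin and other classical cadherins join Sertoli and germ cells. The Celsr, Fat and Dchs proteins are very large cadherins that orient cells within a sheet, a property called planar cell polarity.

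The libraries held between 25081647 and 68996146 counts, and the shallowest was F1 control replicate 3. Levels are given as CPM, counts of the gene per 1000000 counts of the library, after TMM scaling over the 12 libraries. A level per length is CPM per kb of the exons of the gene. The test was the quasi-likelihood test of edgeR on raw counts within each generation, with adjustment over all genes tested, and a gene was called at an adjusted p under 0.15 in F1 and 0.1 in F3, the thresholds of the study. The methods say that males of different litters entered each assay, but the labels do not tie a pool to its litters, so p-values measure the spread between pools. F3 *thia* replicate 2 stood apart from its group, with a chi-square per degree of freedom of 90.7 and 101 against the other pools. Skeletal muscle markers were high in F1 *thia* replicate 2, at a summed 601 CPM against 43.9 to 109.7 CPM in the other F1 libraries. The labels do not say whether F1 and F3 libraries were prepared or sequenced together, so generation and any such occasion cannot be told apart.

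Together the 100 genes took 0.143% of all counts. *Cdh11*, a type II cadherin of mesenchymal cells, was the highest per length, at a mean of 46.2 CPM per kb over the 12 libraries. *Pcdh18* followed with 23.4 CPM per kb and *Cdh3*, which encodes P-cadherin, with 22.3 CPM per kb. These 2 neighbours in the order lay close together, and their libraries overlapped in CPM per kb. *Pcdhgc3*, one of the C-type gamma protocadherins, had 14.7 CPM per kb, *Dchs1* had 11.2 CPM per kb and *Fat1* had 5.56 CPM per kb. *Cdh2*, which encodes N-cadherin, and *Cdh24* were nearly equal, at 4.23 and 4.14 CPM per kb.

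The gamma genes share their constant exons, so a read there cannot be given to 1 gene. With the length of unshared exons alone, *Pcdhgc3* had 23.95 CPM per kb and took the second place after *Cdh11*. The alpha genes share constant exons in the same way. Their variable exons gave almost no reads: 3 of the 14 alpha genes, *Pcdha1*, *Pcdha6* and *Pcdha7*, had 0 counts in all libraries, and no alpha gene exceeded 29 counts in any library. *Pcdhac2* was the highest of them at 0.303 CPM and the only one that passed the filter on low counts. *Pcdha5* and *Pcdha12* came next per length, with 0.0233 and 0.0224 CPM per kb. By contrast, 21 of 22 beta genes and all 22 gamma genes passed the filter in F1. *Pcdhb20*, *Pcdhb17* and *Pcdhb7* led the beta genes with 2.68, 2.52 and 1.39 CPM per kb. Within the gamma cluster *Pcdhgc3* alone held between 55.9% and 60.2% of the summed CPM in every library, far above *Pcdhgb6* with 1.43 and *Pcdhga7* with 1.26 CPM per kb. Among the other members, *Cdh19* and *Pcdhb1* also failed the filter, and *Pcdhgb8* failed it in F3.

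**Figure D1:**
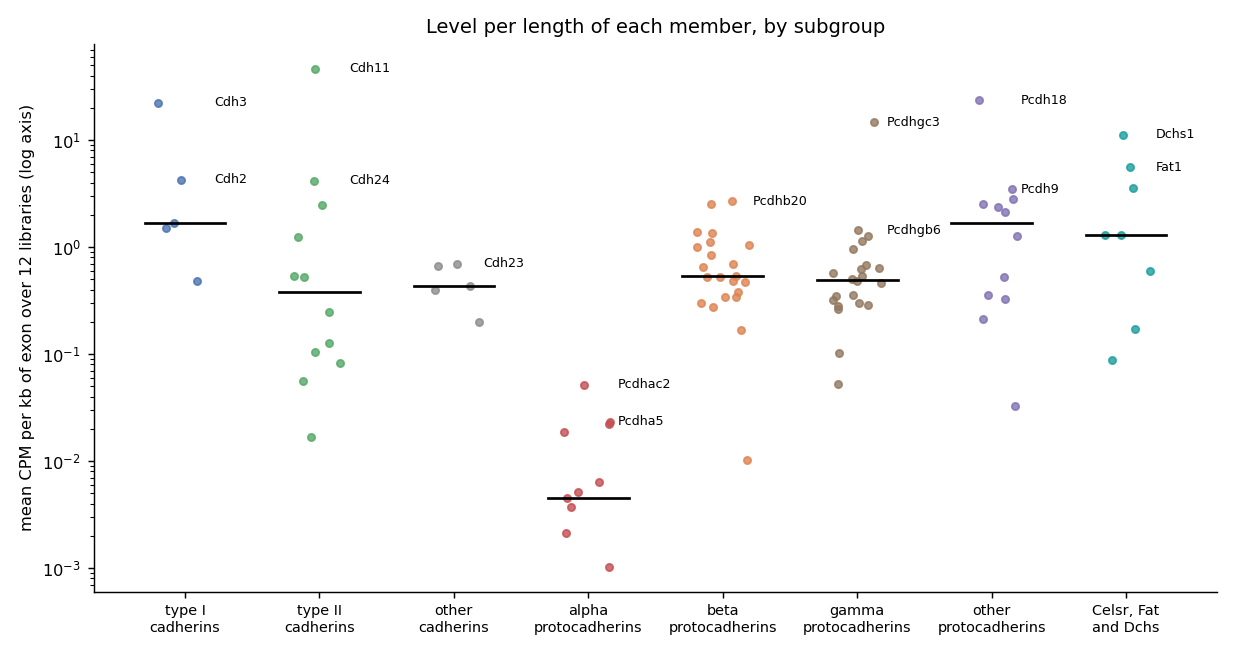
Mean CPM per kb of exon over the 12 libraries, on a log axis, for each member with a length and at least 1 count, by family; black lines are family medians and the leading genes are named. *Cdh11* is highest at 46.2 CPM per kb and the alpha protocadherins lie lowest, while 3 alpha genes at 0 and *Pcdha10*, which had no length, are not drawn.

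Within F1, control and directly exposed *thia* pools were compared. Of 85 members tested, 0 were called by edgeR, where 0.0105% of all genes tested were called, and DESeq2 also called 0 members, where it called 0.528% of all genes as higher and 0.544% as lower. At an unadjusted p under 0.05, 4 members were higher in *thia*, *Cdh22*, *Fat2*, *Cdh16* and *Cdh13*, and 0 were lower. Over all genes 4.63% were higher and 4.13% lower at that level, so the 4 of 85 members are close to the background. Without F1 control replicate 3, 2 members were higher, where 3.55% of all genes were. Without F1 control replicate 2, 3 members were lower. The median log2 fold change of the members was 0.07 and that of all genes 0.01.

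*Cdh22*, a type II cadherin best known from brain, had 1.39, 1.26 and 1.22 CPM in the F1 control pools and 2.58, 1.59 and 2.36 CPM in the *thia* pools. The groups did not overlap, and the log2 fold change was 0.77 (SE 0.24, unadjusted p = 0.00864, adjusted p = 0.507 by edgeR). *Fat2* had 1.61, 1.98 and 1.30 CPM in control and 2.99, 2.16 and 2.94 CPM in *thia*, again without overlap, with a log2 fold change of 0.73 (SE 0.23, adjusted p = 0.508 by edgeR). In all, groups did not overlap for 4 members, all higher in *thia*, where 6.55% of all genes were apart with *thia* higher and 8.45% with *thia* lower. *Cdh13*, a cadherin anchored by a lipid and without a cytoplasmic tail, had 2.15, 1.48 and 1.82 CPM against 1.85, 3.35 and 3.18 CPM, and these values overlap.

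*Cdh16*, or kidney-specific cadherin, marks kidney tubules and ducts of mesonephric origin. In F1 it had 0.352, 1.15 and 1.11 CPM in control and 5.48, 0.942 and 1.40 CPM in *thia*. The difference rests on *thia* replicate 1, since the other *thia* pools lie around the control values. Its log2 fold change was 1.62 (SE 0.63, adjusted p = 0.537 by edgeR), and 0.47 without *thia* replicate 1. The summed markers of mesonephric and duct epithelium were between 101 and 109 CPM in F1 control and between 101 and 141 CPM in F1 *thia*. Their part in the *Cdh16* values was not tested.

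Within F3, more members were higher than lower in *thia*. The edgeR test called 0 of 84 members, and 0% of all 18539 genes tested. The smallest adjusted p of all genes by edgeR was 0.1006, just above the threshold of 0.1. At an unadjusted p under 0.05, however, 20 members were higher and 3 lower, against 11.0% of all genes higher and 10.0% lower. The 20 of 84 make 23.8%. The median log2 fold change was 0.25 for the members and 0.0044 for all genes, and 71 of 84 members had a positive value. Groups did not overlap for 25 members with *thia* higher and for 4 with *thia* lower, where 13.4% and 13.9% of all genes were apart in these directions. DESeq2, the tool of the study, gave 67 members an adjusted p and called 14 as higher and 3 as lower. Of all genes with an adjusted p, it called 9.54% as higher and 5.95% as lower. With all 12 libraries in 1 fit, edgeR called 13 of 85 members, all of them higher in *thia*, and 9.86% of all genes in both directions. With upper quartile scaling within F3, edgeR called 0 of 84 members and 2.8% of all genes.

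Leaving out a pool moved these counts. Without F3 control replicate 1, or without F3 *thia* replicate 3, 10 members were higher at an unadjusted p under 0.05, where 6.07% and 6.64% of all genes were, and without F3 control replicate 3 there were 12, where 9.61% of all genes were. Without F3 *thia* replicate 2, the pool that stood apart, edgeR called 8 of 84 members and 6.82% of all genes. The members are also longer than most genes, with a median exon length of 5296 bases against 4026 bases for all genes tested. In F3 the median log2 fold change of all genes moved with length, from -0.12 in the class of shortest genes to 0.12 in the class of longest genes when genes were divided into 5 classes of exon length. Within the longest class the 27 members had a median of 0.29, in the next class 19 members had 0.35 against 0.04 for all genes, and in the middle class 31 members had 0.21 against -0.0043. With the trend on gene length removed from each library, 12 members were higher, where 8.31% of all genes were, and 5 lower, and the median of the members was 0.17 against -0.02 for all genes.

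**Figure D2:**
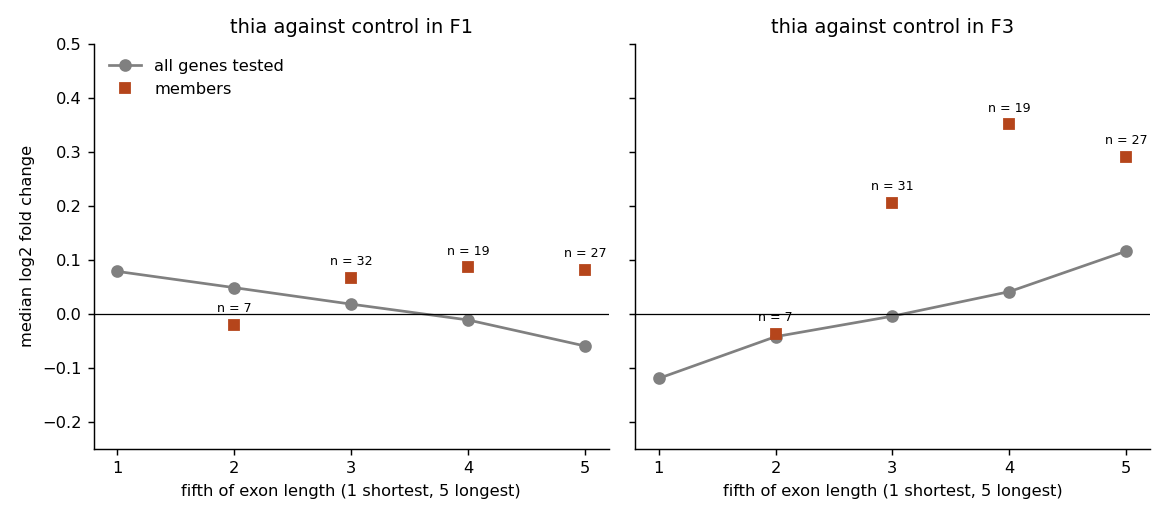
Median log2 fold change of *thia* against control in 5 classes of exon length, for all genes tested (grey) and for the members (squares, with their number), in F1 on the left and F3 on the right. In F3 the median of all genes goes from -0.12 to 0.12 with length, and the members of the 3 longest classes lie above it.

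**Figure D3:**
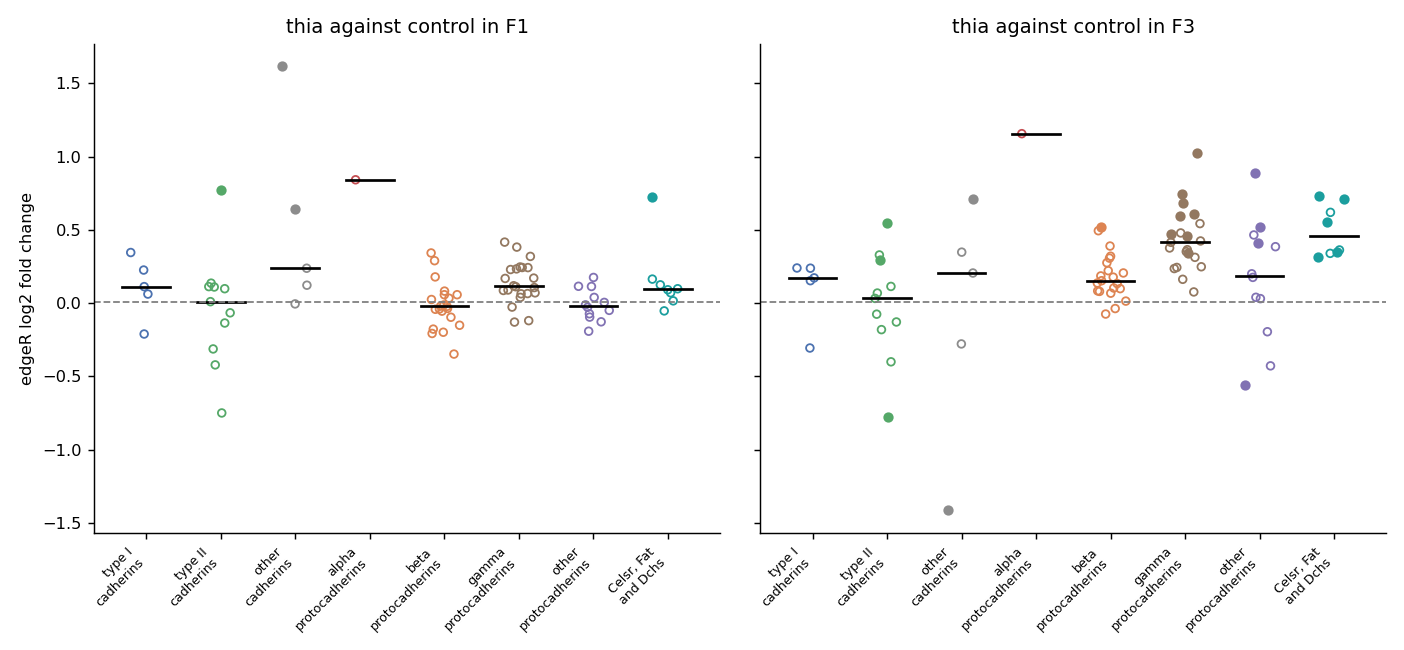
Log2 fold change of each member tested (edgeR) in F1 on the left and F3 on the right, by family; filled points have an unadjusted p under 0.05, black lines are family medians and the dashed line is the median of all genes. In F3 the gamma protocadherins and the Celsr, Fat and Dchs genes all lie above 0.

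The 16 classical cadherins tested, types I and II, had median log2 fold changes of 0.08 in F1 and 0.09 in F3. No type I cadherin reached an unadjusted p of 0.05 in F1 or F3. *Cdh2* had 26.5, 28.3 and 27.5 CPM in the F3 control pools and 30.3, 29.5 and 37.3 CPM in F3 *thia*. Although these groups did not overlap, its log2 fold change of 0.24 (SE 0.11) had an unadjusted p of 0.0649 by edgeR. *Cdh3* overlapped between groups, with 75.3, 101 and 74.8 CPM in F3 control and 84.0, 91.5 and 107 CPM in F3 *thia*. *Cdh1*, which encodes the epithelial E-cadherin, varied widely between pools of 1 group, with 4.13, 13.9 and 5.69 CPM in F3 *thia*. *Cdh15*, or M-cadherin, belongs to muscle precursors. It was highest in F1 *thia* replicate 2 with 8.23 CPM, the pool with the high skeletal muscle markers, and at 3.11 to 6.30 CPM in the other F1 libraries. The part of those markers was not tested.

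*Cdh11*, the most abundant member, had 440, 454 and 421 CPM in F3 control and 393, 426 and 385 CPM in F3 *thia*. These ranges overlap, and its log2 fold change was -0.13 (SE 0.07, adjusted p = 0.360 by edgeR). *Cdh6*, a type II cadherin of the fetal kidney, had 21.1, 21.8 and 18.5 CPM in F3 control and 24.6, 27.2 and 23.3 CPM in F3 *thia*. All its *thia* values lay above control, with a log2 fold change of 0.29 (SE 0.10, adjusted p = 0.168 by edgeR). *Cdh22* was again higher, at 1.92, 1.75 and 1.73 CPM against 3.11, 2.27 and 2.52 CPM, so that its groups were apart in both generations. Its log2 fold change in F3 was 0.55 (SE 0.20, adjusted p = 0.178 by edgeR). *Cdh12* was lower in F3, with 3.16, 3.48 and 4.59 CPM in control and 3.09, 1.58 and 1.90 CPM in *thia*. DESeq2 called it (adjusted p = 0.0796), and edgeR did not (log2 fold change -0.78, SE 0.29, adjusted p = 0.192).

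Of the other cadherins, *Cdh23*, whose protein forms the tip links of inner ear hair cells, had 6.54, 9.27 and 7.54 CPM in F3 control and 12.9, 8.46 and 16.8 CPM in F3 *thia*. F3 *thia* replicate 2 fell within the control range. The log2 fold change was 0.71 (SE 0.26, adjusted p = 0.183 by edgeR and 0.0446 by DESeq2), and 0.45 without F3 *thia* replicate 3. *Cdh16* was lower in F3 *thia*, with 0.954, 0.690 and 0.898 CPM against 3.01, 1.05 and 2.76 CPM in control. All *thia* pools lay below control, with a log2 fold change of -1.41 (SE 0.40, adjusted p = 0.132 by edgeR and 0.0158 by DESeq2). Beside it the summed markers of mesonephric and duct epithelium were 159 to 192 CPM in F3 control and 120 to 154 CPM in F3 *thia*, with all 7 markers detected in every library. Of the 6 markers tested in F3, 1 was lower and 0 higher at an unadjusted p under 0.05, and their median log2 fold change was -0.16. In such pools, fewer cells of a type and less RNA per cell cannot be told apart, and the part of these markers was not tested. *Cdh17*, the intestinal and liver cadherin, overlapped between groups in both generations and had log2 fold changes of 0.24 in F1 and 0.21 in F3.

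Among the clustered protocadherins, all 21 gamma genes tested in F3 had a positive log2 fold change, with a median of 0.41. At an unadjusted p under 0.05, 8 of them were higher, where 11.0% of all genes were. DESeq2 called 7 of the 19 with an adjusted p as higher, where it called 9.54% of all genes as higher. In F1 the median of the 22 gamma genes was 0.12, with 19 positive values and 0 at an unadjusted p under 0.05. The summed gamma CPM was 122 ± 11.4 (SD, n = 3) in F3 control and 158 ± 6.69 (SD, n = 3) in F3 *thia*. In F1 the sums were 135 ± 6.34 and 144 ± 4.43 CPM (SD, n = 3). These genes lie side by side and share constant exons and neighbourhood, so they are not independent of each other.

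*Pcdhgc3* had 72.3, 76.9 and 63.9 CPM in F3 control and 88.6, 89.1 and 92.2 CPM in F3 *thia*. The *thia* pools were close to each other and all above control, with a log2 fold change of 0.34 (SE 0.08, unadjusted p = 0.00339, adjusted p = 0.108 by edgeR and 0.0198 by DESeq2). *Pcdhga8* had the largest gamma difference, with 1.05, 1.11 and 0.744 CPM in control and 1.77, 1.90 and 2.22 CPM in *thia*. Its log2 fold change was 1.02 (SE 0.23, adjusted p = 0.105 by edgeR and 0.0152 by DESeq2), and every fit that left out 1 pool gave a value between 0.87 and 1.11. *Pcdhgb1* had 1.12, 1.46 and 1.17 CPM in F3 control and 2.00, 2.07 and 1.96 CPM in F3 *thia*, with a log2 fold change of 0.69 (SE 0.20, adjusted p = 0.134 by edgeR). It was also apart in F1, with 1.18, 1.43 and 1.04 CPM against 1.53, 1.61 and 1.60 CPM, although its F1 log2 fold change of 0.38 (SE 0.22) had an adjusted p of 0.625 by edgeR. *Pcdhga7*, the third most abundant gamma gene per length, had 5.24, 6.39 and 5.79 CPM in F3 control and 7.34, 8.02 and 8.77 CPM in F3 *thia*, without overlap. The remaining genes called by DESeq2 were *Pcdhga1*, *Pcdhga4* and *Pcdhgb5*, with edgeR log2 fold changes of 0.60, 0.61 and 0.74, and *Pcdhga6* reached an unadjusted p under 0.05 only. In contrast, *Pcdhgb6* overlapped between groups, with 6.32, 6.47 and 6.67 CPM against 6.29, 8.77 and 8.0 CPM.

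The beta genes have a single exon each. Their median log2 fold change was -0.02 in F1 and 0.15 in F3, with 19 of 21 positive values in F3. Only *Pcdhb8* reached an unadjusted p under 0.05 in F3, with 1.61, 1.86 and 1.41 CPM in control and 2.68, 2.42 and 1.93 CPM in *thia* (log2 fold change 0.52, SE 0.21, adjusted p = 0.223 by edgeR). The most abundant beta gene, *Pcdhb20*, had 10.3, 10.4 and 10.1 CPM in F3 control and 8.50, 11.6 and 10.9 CPM in F3 *thia*. Its log2 fold change was 0.01 (SE 0.15). *Pcdhb17* was at 0.18 (SE 0.11) and *Pcdhb7* at 0.08 (SE 0.19), neither at an unadjusted p under 0.05. Of the alpha genes only *Pcdhac2* could be tested. It had 0.155, 0.0539 and 0.372 CPM in F3 control and 0.454, 0.431 and 0.434 CPM in F3 *thia*, and its log2 fold change was 1.16 (SE 0.55, adjusted p = 0.276 by edgeR).

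**Figure D4:**
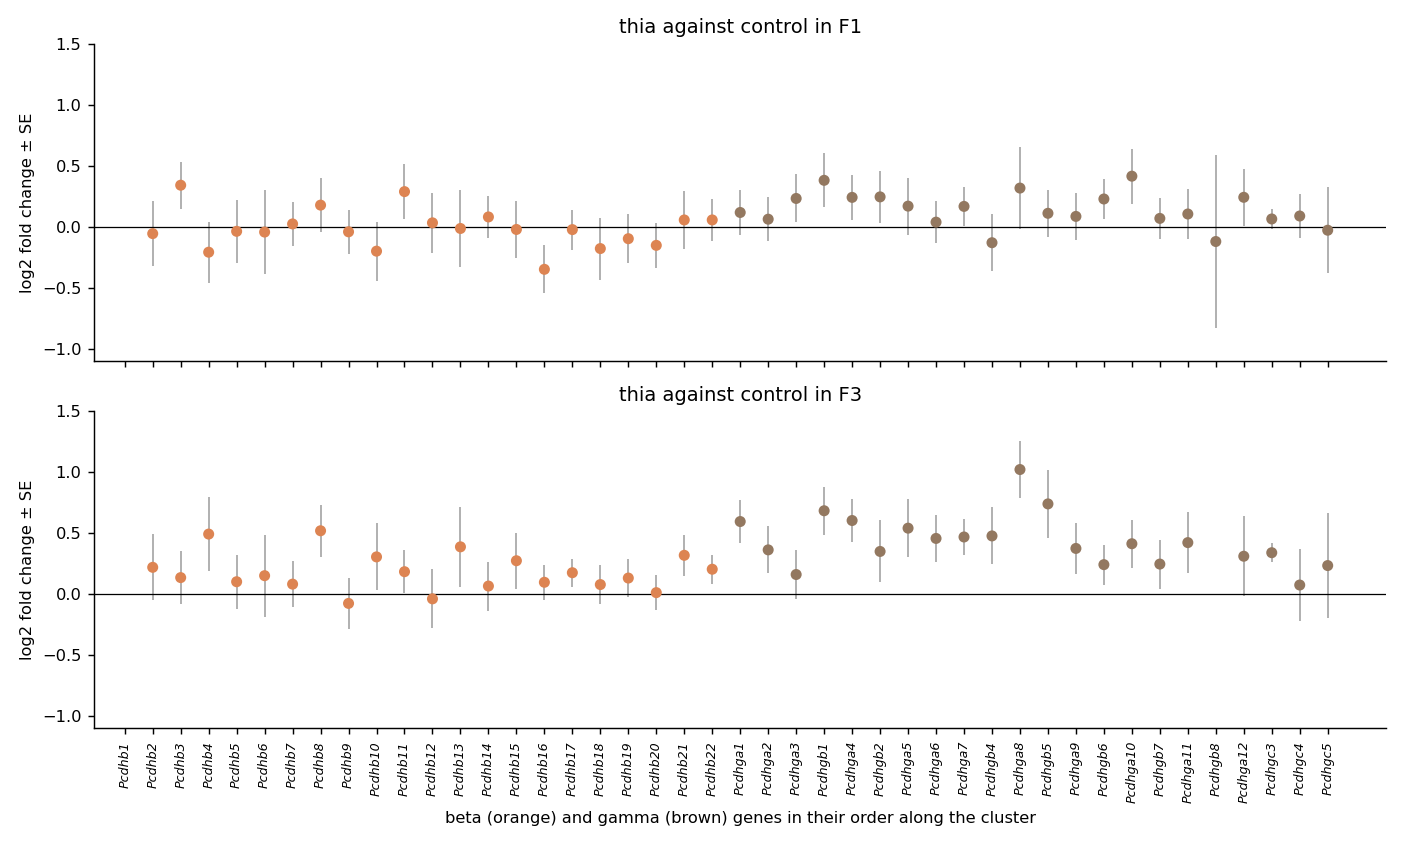
Log2 fold change with its SE (edgeR) for the beta (orange) and gamma (brown) protocadherin genes in their order along the cluster, in F1 above and F3 below; a gene that failed the filter has no point. In F3 the gamma genes tested are all above 0, with *Pcdhga8* highest at 1.02, while the beta genes have a median of 0.15.

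Of the 12 other protocadherins, 3 were higher and 1 lower in F3 at an unadjusted p under 0.05, where 11.0% and 10.0% of all genes were. The family median was 0.19. *Pcdh12*, an endothelial and placental protocadherin, had 7.66, 8.49 and 7.97 CPM in F3 control and 12.2, 9.26 and 13.0 CPM in F3 *thia*. The groups did not overlap, and the log2 fold change was 0.52 (SE 0.16, adjusted p = 0.143 by edgeR and 0.0299 by DESeq2). *Pcdh17* also did not overlap, with 2.29, 2.26 and 2.87 CPM in control and 5.52, 3.16 and 5.09 CPM in *thia*. Its log2 fold change was 0.89 (SE 0.25, adjusted p = 0.132 by edgeR and 0.0139 by DESeq2). *Pcdh1* overlapped between groups, with a log2 fold change of 0.41 (SE 0.17, adjusted p = 0.231 by edgeR), and 0.26 without F3 *thia* replicate 2.

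Endothelial markers were higher in the same pools. The summed CPM of 6 endothelial markers, all detected in every library, was 164 to 186 in F3 control and 240 to 294 in F3 *thia*, and 5 of the 6 were higher at an unadjusted p under 0.05 in F3. In F1 the sums were 234 to 285 CPM in control and 254 to 302 CPM in *thia*, and *Pcdh12* was at 14.7 to 17.7 CPM in control and 14.4 to 17.5 CPM in *thia*. F3 *thia* replicate 2 was the lowest *thia* pool for *Pcdh12*, *Pcdh17* and the endothelial sum. That pool was also the lowest for *Fat1*, *Fat4*, *Celsr2* and *Cdh23*, and for the sums of Leydig, Sertoli and germ cell markers. For *Dchs1* and the sums of interstitial and duct markers it was the highest. The part of the endothelial markers in the *Pcdh12* and *Pcdh17* differences was not tested. The Leydig cell markers were also higher in F3 *thia*, with sums of 3840 to 6968 CPM against 2190 to 3619 CPM, and germ cell markers were 311 to 523 CPM against 431 to 635 CPM in control. Sertoli cell markers were at 601 to 1054 CPM in F3 *thia* and 568 to 729 CPM in F3 control, with 2 of 6 higher at an unadjusted p under 0.05. In F1, 4 of 6 germ cell markers were lower in *thia* at that level, with a median log2 fold change of -0.56. The part of these markers was not tested either.

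*Pcdh20* differed in the other direction. It had 4.81, 4.18 and 4.75 CPM in F3 control and 2.66, 3.34 and 3.35 CPM in F3 *thia*, so that all *thia* pools were lower. The log2 fold change was -0.56 (SE 0.18, adjusted p = 0.153 by edgeR and 0.0627 by DESeq2). The abundant members of this family did not pass the test. *Pcdh18* had 110, 124 and 106 CPM in F3 control and 121, 121 and 148 CPM in F3 *thia* (log2 fold change 0.20, SE 0.11, adjusted p = 0.331 by edgeR). *Pcdh7* was at 0.04 (SE 0.08) and *Pcdh9* at 0.38 (SE 0.18).

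All 8 Celsr, Fat and Dchs genes had a positive log2 fold change in F3, with a median of 0.46. At an unadjusted p under 0.05, 5 were higher, where 11.0% of all genes were. In F1 the median was 0.09. They also had the longest exons of the families, with a median total of 13296 bases, and so lie in the class where all genes had a median of 0.12. *Fat1*, a giant cadherin that acts on actin at cell edges, had 45.8, 69.3 and 58.0 CPM in F3 control and 91.4, 67.2 and 128 CPM in F3 *thia*. F3 *thia* replicate 2 lay within the control range. The log2 fold change was 0.73 (SE 0.25, adjusted p = 0.163 by edgeR and 0.0220 by DESeq2), and 0.45 without F3 *thia* replicate 3.

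*Fat4* and *Dchs1* encode a receptor and its ligand in the planar polarity pathway. *Fat4* had 14.6, 15.9 and 21.1 CPM in F3 control and 24.1, 21.5 and 38.7 CPM in F3 *thia*, and *Dchs1* had 110, 128 and 125 CPM in control and 131, 170 and 162 CPM in *thia*. Neither gene overlapped between groups. The log2 fold change was 0.71 (SE 0.25, adjusted p = 0.174 by edgeR) for *Fat4* and 0.35 (SE 0.12, adjusted p = 0.163 by edgeR) for *Dchs1*. Without F3 *thia* replicate 3 the value of *Fat4* was 0.40. *Celsr2*, a cadherin with a receptor-like membrane domain, had 4.37, 4.58 and 3.80 CPM in control and 6.20, 4.89 and 7.61 CPM in *thia*, also without overlap. Its log2 fold change was 0.56 (SE 0.20, adjusted p = 0.180 by edgeR and 0.0694 by DESeq2). Without F3 *thia* replicate 2, edgeR called *Celsr2*, *Fat1* and *Fat4*. *Celsr1*, the most abundant Celsr gene, overlapped between groups, with 33.2, 42.7 and 31.2 CPM in F3 control and 42.2, 42.2 and 48.8 CPM in F3 *thia*.

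**Figure D5:**
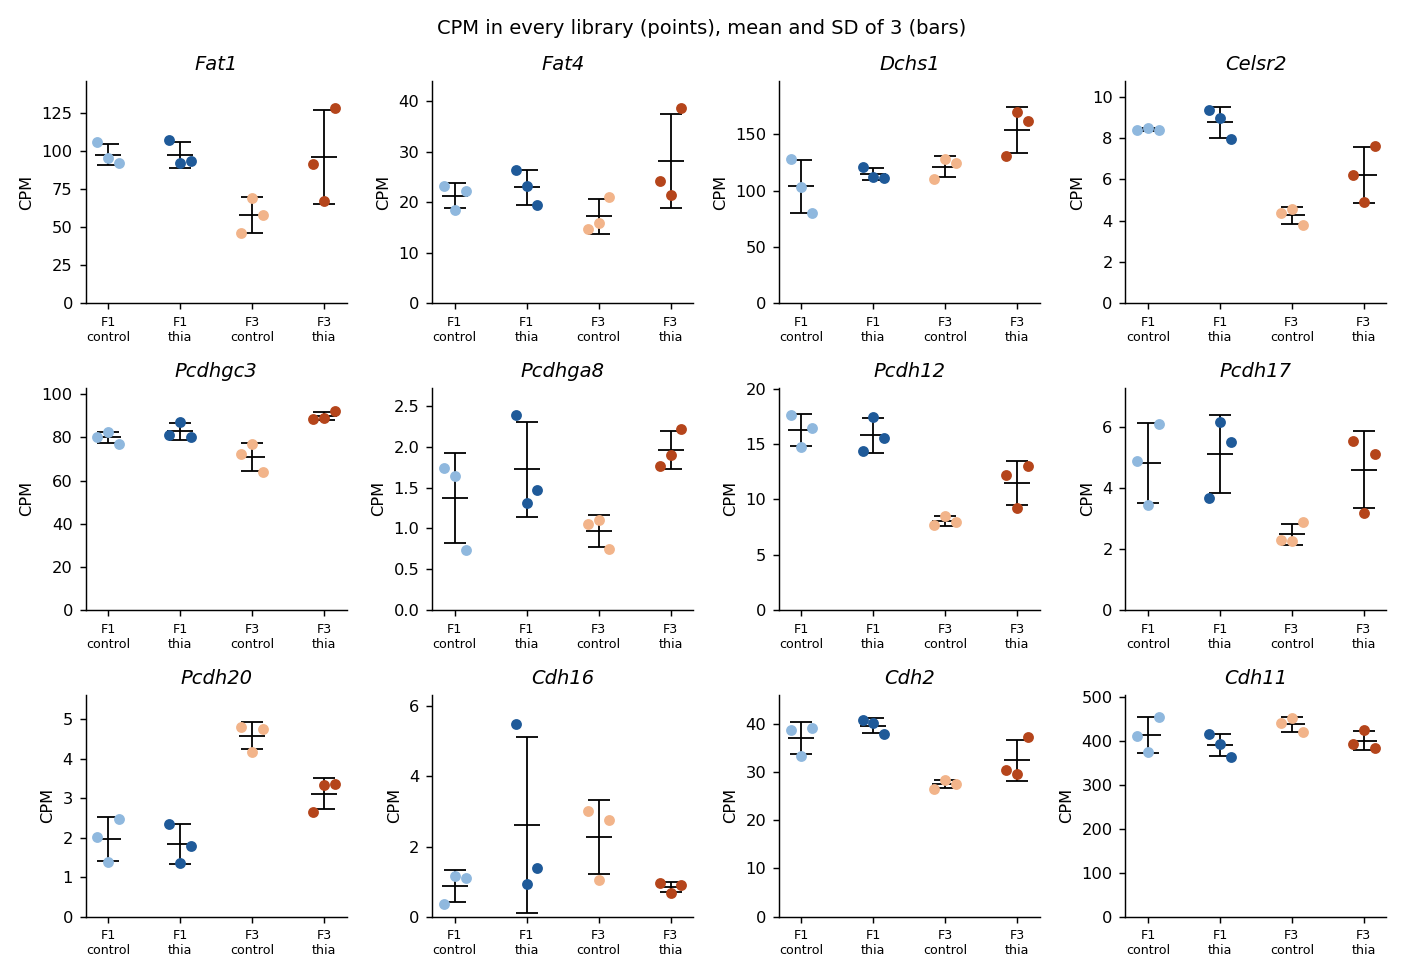
CPM of 12 members in every library (points), with the mean and SD of the 3 libraries of each group (bars), on axes that start at 0. In F3 the *thia* pools of *Fat4*, *Dchs1*, *Celsr2*, *Pcdhgc3*, *Pcdhga8*, *Pcdh12* and *Pcdh17* lie above all control pools, those of *Pcdh20* and *Cdh16* below, and *Cdh11* overlaps.

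Windows before the gene start were read from the RefSeq table of promoters on GRCm38.p6, where 28 members had an entry and 15 of these had a window that ended within 50 bases of the GENCODE gene start. Windows are shown for 4 genes that DESeq2 called in F3, *Celsr2*, *Fat4* and *Pcdh17*, higher in *thia*, and *Pcdh20*, lower in *thia*. Each is the 250 bases before the start, on the strand of the gene. Capitals mark motifs searched on both strands. The first was the GC box that Sp1 binds, with the letters GGGCGG. Another was the CCAAT box of factor NF-Y, spelled as in its name. The core promoter element searched, known as the TATA box, had the letters TATAAA. The last was the E-box that repressors of the Snail family bind, with the letters CACCTG. No motif overlapped another motif in the windows shown.
Celsr2, chr3:108415580-108415829, minus strand: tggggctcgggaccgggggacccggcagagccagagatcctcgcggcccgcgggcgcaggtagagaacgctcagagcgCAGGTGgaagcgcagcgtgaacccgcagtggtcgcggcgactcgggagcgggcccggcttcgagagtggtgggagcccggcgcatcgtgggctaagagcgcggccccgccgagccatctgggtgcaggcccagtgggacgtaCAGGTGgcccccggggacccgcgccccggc
Fat4, chr3:38886690-38886939, plus strand: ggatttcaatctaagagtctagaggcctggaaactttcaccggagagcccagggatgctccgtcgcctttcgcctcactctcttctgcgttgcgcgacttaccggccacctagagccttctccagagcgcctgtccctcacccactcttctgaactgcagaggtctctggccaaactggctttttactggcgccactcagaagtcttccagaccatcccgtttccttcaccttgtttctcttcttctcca
Pcdh17, chr14:84443313-84443562, plus strand: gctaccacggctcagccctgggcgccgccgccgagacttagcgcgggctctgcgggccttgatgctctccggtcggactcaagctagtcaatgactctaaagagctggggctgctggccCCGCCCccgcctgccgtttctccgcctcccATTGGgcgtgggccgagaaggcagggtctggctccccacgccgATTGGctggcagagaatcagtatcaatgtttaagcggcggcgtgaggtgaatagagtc
Pcdh20, chr14:88471397-88471646, minus strand: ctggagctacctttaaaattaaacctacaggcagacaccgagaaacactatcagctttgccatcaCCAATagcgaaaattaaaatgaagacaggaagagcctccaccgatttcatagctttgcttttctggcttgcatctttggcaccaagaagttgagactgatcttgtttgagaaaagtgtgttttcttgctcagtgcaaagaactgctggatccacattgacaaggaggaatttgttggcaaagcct

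The *Celsr2* window held 32 CpG and 2 matches to the E-box, and the *Pcdh17* window held 21 CpG, 1 GC box and 2 CCAAT boxes. The *Fat4* window held 11 CpG and no match, and the *Pcdh20* window held 3 CpG and 1 CCAAT box. *Cdh23*, also called as higher by DESeq2 in F3, had a window that is not shown, with 5 CpG and no match. Over all 32817 windows of this length the median was 6 CpG, 32.7% held a GC box, 33.8% a CCAAT box, 12.4% a TATA box and 17.2% this E-box. A match is a run of letters only.

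Whether the *thia* effect differed between generations was tested in 1 fit of all libraries. No member was called by edgeR, or by DESeq2, which gave 53 members an adjusted p. Of all genes, DESeq2 called 4.67% and edgeR 0.00510%. At an unadjusted p under 0.05 the F3 effect was above the F1 effect for 4 members, *Fat1*, *Celsr2*, *Pcdh12* and *Pcdhgc3*, and below it for 1, *Cdh16*, against 7.93% and 6.10% of all genes. The median difference was 0.23 for the members and 0.02 for all genes. For *Fat1* the difference was 0.73 (SE 0.28, adjusted p = 0.282 by edgeR) and 0.46 without F3 *thia* replicate 3, and for *Pcdh12* 0.56 (SE 0.19, adjusted p = 0.258 by edgeR). *Cdh16* had the largest difference at -3.01 (SE 0.89, adjusted p = 0.252 by edgeR), which became -1.86 without F1 *thia* replicate 1. The higher levels in F3 *thia* at an unadjusted p are thus not shown to differ from F1.

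The control pools themselves differed between the generations. F3 control against F1 control gave 17 called members of 85, 3 higher and 14 lower in F3. Of all genes, 42.3% were called, 19.9% higher and 22.4% lower. Members were thus called less often than all genes in each direction. With upper quartile scaling, 9 members were higher and 9 lower at an unadjusted p under 0.05, against 6 and 16 with TMM, so the balance of directions depends on the scaling. Of all genes, 26.8% were higher at that level with upper quartile scaling and 20.8% with TMM. The share of all genes that were lower at that level is not given here. The median log2 difference of the members was -0.08 with TMM and 0.01 with upper quartile scaling. That of all genes moved likewise, from -0.02 with TMM to 0.08 with upper quartile scaling. Without F3 control replicate 3, 11 members were called, where 30.9% of all genes were. *Pcdh12* was lower, with 17.7, 14.7 and 16.4 CPM in F1 control and a log2 difference of -1.02 (SE 0.14, adjusted p = 0.000380 by edgeR). *Celsr2* was lower by the same order, from 8.40, 8.51 and 8.38 CPM in F1 control, with a log2 difference of -0.99 (SE 0.16, adjusted p = 0.00102 by edgeR). *Celsr3* had -1.16, *Pcdh17* -0.95, *Pcdh8* -0.85, *Fat1* -0.76, *Cdh23* -0.73 and *Cdh2* -0.43. The type I genes *Cdh3* and *Cdh4* were also called as lower, at -0.32 and -0.52. *Fat1* had 105, 95.0 and 91.8 CPM in F1 control and 107, 91.7 and 93.5 CPM in F1 *thia*, so the F3 *thia* pools at 67.2 to 128 CPM spanned the F1 range. *Pcdh20* was higher in F3 control, from 2.01, 1.38 and 2.48 CPM in F1 control, with a log2 difference of 1.24 (SE 0.25, adjusted p = 0.00273 by edgeR). *Cdh8* and *Fat2* were the other called members with a higher level, at 0.89 and 0.58. Of the gamma genes, *Pcdhga5* and *Pcdhgb5* were called as lower, at -0.56 and -0.59. Without F3 control replicate 1 the value of *Pcdhgb5* was -0.35. *Pcdhgb8* had 0.600, 0.148 and 0.296 CPM in F1 control and 0.0310, 0.162 and 0.0531 CPM in F3 control. F3 and F1 pools also differ in Sertoli cell markers, with sums of 568 to 729 CPM in F3 control and 1222 to 1355 CPM in F1 control, and in surface epithelium markers, with 475 to 576 CPM against 151 to 203 CPM. Their part in the differences was not tested.

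A list of catenins, junction adaptors, processing enzymes, planar polarity genes, regulators of the clustered promoters, desmosomal cadherins and other cadherin relatives held 66 genes that were tested. In F1, 2 were higher and 3 lower at an unadjusted p under 0.05, against 4.63% and 4.13% of all genes. Both tools called 0 of them in F1. In F3, 17 were higher and 1 lower at that level, against 11.0% and 10.0% of all genes. The median log2 fold change of the 66 genes in F3 was 0.13. The edgeR test called 0 of them in F3. DESeq2 called 12 of the 64 with an adjusted p, all of them higher, where it called 9.54% of all genes as higher. *Pkp4*, a catenin of the p120 family, was at 0.45 (SE 0.09, adjusted p = 0.105 by edgeR and 0.00304 by DESeq2). *Cdhr5*, a cadherin of brush border microvilli, had 2.95, 4.88 and 4.01 CPM in control and 8.40, 7.39 and 11.8 CPM in *thia*, with a log2 fold change of 1.22 (SE 0.25, adjusted p = 0.105 by edgeR and 0.000136 by DESeq2).

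For the difference between the generations, 18 partner genes had a higher F3 effect at an unadjusted p under 0.05 and 0 a lower one, against 7.93% and 6.10% of all genes. DESeq2 called 3, *Cdhr5*, *Vcl* and *Mllt4*, where it called 4.67% of all genes, and the edgeR differences were 1.17, 0.44 and 0.49. *Vcl* encodes vinculin and *Mllt4* afadin, both of which link junctions to actin. Between the control groups 31 of the 66 partner genes were called as lower in F3 and 3 as higher, against 22.4% and 19.9% of all genes. Of the 31, 16 were among the 18 regulators of the clustered promoters. The smallest p belonged to *Vangl2*, a core planar polarity gene, at -0.91, *Dnmt1*, the maintenance DNA methyltransferase, at -0.90, and *Nipbl*, the cohesin loader, at -1.12.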

How the data were processed

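RNA was measured in 12 libraries of E15.5 testis, 3 for each of the 4 groups of F1 control, F1 *thia*, F3 control and F3 *thia*. The deposited values are raw counts per gene symbol, which the authors made from paired-end stranded reads with bcl2fastq 2.20.0.422, HISAT2 2.1.0 on mm10 and featureCounts on the refGene annotation of UCSC, per the labels and the submitters' processing notes. The unit of counting, pairs or reads, and how reads in shared exons were treated, are not given in the sources used here. Every row named a gene, and no pair of replicates agreed within sampling noise. Total counts ranged from 25081647 to 68996146, and counting error is largest for the members under 1 CPM.

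Counts were tested in R 4.3.3 with the quasi-likelihood test of edgeR 4.0.16, after filterByExpr at a minimum count of 10 and TMM scaling, with Benjamini-Hochberg adjustment over all genes tested. Each generation was fitted by itself, and the difference between generations and the control groups in 1 fit of the 12 libraries. The SE was derived from the test statistic. The code was tested on simulated counts. Exon lengths are unions of exons in GENCODE M21, and 99 members had one. Alternatives were the Wald test of DESeq2 1.42.0, other scalings and filters, all libraries in 1 fit, an FDR of 0.05, the replicate number as a block and leaving out each pool. A loess curve (span 0.3) against exon length, or against GC content, was subtracted per library as a further alternative chosen after seeing the data.

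The members and lists were chosen with earlier results of these data known. Members were named by a rule: in each family the 3 highest per length and the 3 smallest p under 0.05 in each comparison, those called in F1, *Cdh1*, *Cdh2*, *Cdh3*, *Cdh11*, *Cdh15*, *Cdh16*, *Celsr2* and *Fat1*, and at most 3 called partner genes in each comparison. One partner gene that this rule names is not reported here. Further genes were picked with their values in view. Of the marker lists, those for germ, Sertoli, Leydig, endothelial, duct, surface epithelium and skeletal muscle cells are given beside results. The lists for interstitial cells, smooth muscle, macrophages, neurons and glia, and adrenal are given in the closing section.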

Additional observations from a re-analysis of the deposited data

How the results depend on the processing

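In F1 no member was called by edgeR, DESeq2 or any fit without a pool. Without the filter on low counts 1 of 97 members was called, *Cdh16*, where 0.78% of all genes were. In that fit 1 member was lower at an unadjusted p under 0.05, and 1 was with the trend on GC content removed. Leaving out 1 pool gave 2 to 6 of 85 members higher in F1, where 3.37% to 5.19% of all genes were, and 0 to 3 lower. In F3 DESeq2 called 17 members and the fit of all 12 libraries 13, against 0 in the edgeR fit of F3, and leaving out 1 pool gave 0 to 8 called, 10 to 19 higher and 2 to 4 lower. With the trend on gene length removed, 12 members were higher in F3, where 8.31% of all genes were, and 5 lower. The median log2 fold change was then 0.17 for the members and -0.02 for all genes. For the control groups, leaving out 1 pool gave 11 to 20 called members of 85, where 30.9% to 43.3% of all genes were called. The cause of these shifts was not tested. The members called as different between the effects in F3 and F1 numbered 0 in every fit run. Within F1 and within F3 no median and no named member at an unadjusted p under 0.05 changed sign in any alternative. Between the control groups the members' median was -0.08 and became 0.01 with upper quartile scaling, while that of all genes went from -0.02 to 0.08. An FDR of 0.05 left 0 members called in F1 and in F3. Of the single genes, 37 alternative values in F3 moved to the called side and 308 kept their side. The 37 all came from DESeq2, the fit of 12 libraries or the fit without F3 *thia* replicate 2.

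The replicate numbers did not pair the pools. Deviations of pools with the same number correlated between -0.04 and 0.03 in F1 and between -0.37 and 0.19 in F3. With the replicate number as a block, 3 of 85 members were higher in F1, where 4.07% of all genes were. In F3, 17 of 84 were higher, where 9.63% of all genes were, and 4 were lower. In both generations 0 members were called. Between the control groups 15 of 85 were called, where 39.3% of all genes were. Counts were few for the members under 1 CPM, among them all 14 alpha genes, of which 13 failed the filter on low counts. The part of depth in this was not tested.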

Other observations

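Markers of 5 cell types that are not set beside a result of the report are given here as summed CPM. The 6 interstitial markers were at 1617 to 1826 in F3 control and 1755 to 1975 in F3 *thia*, and at 1503 to 1754 in F1 control and 1713 to 1775 in F1 *thia*. Smooth muscle markers were at 1248 to 1428 in F3 control and 1073 to 1346 in F3 *thia*, and at 788 to 818 in F1 control and 787 to 1019 in F1 *thia*. Macrophage markers were at 39.4 to 48.04 in F1 control and 49.0 to 60.6 in F1 *thia*, where 3 of 5 were higher at an unadjusted p under 0.05 by edgeR, and at 80.8 to 131 in F3 control and 82.2 to 143 in F3 *thia*. Markers of neurons and glia, where clustered protocadherins are best known, were at 45.8 to 51.2 in F1 control and 55.3 to 59.7 in F1 *thia*, and at 49.4 to 55.5 in F3 control, with 48.9 to 59.5 in F3 *thia*. Adrenal markers were at 46.1 to 62.8 in F1 control and 31.1 to 39.9 in F1 *thia*, and at 37.6 to 55.4 in F3 control and 53.9 to 115 in F3 *thia*.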
